A study of Mus musculus with 12 samples.

Results

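Transcripts of 35 genes that mark microglia and other macrophages were followed in brain white matter. The tissue came from Tie2-Cre:RiboTag mice fed a control-fat diet (CFD) or a high-fat diet (HFD). The genes were taken by symbol from a list drawn up with earlier results of these data known, with no threshold on their values, and all 35 were found among the 24060 genes of the count table. All 35 also passed the filter on low counts, as did 14354 genes in all. The genotype of every mouse was Tie2-Cre:Rpl22-HA, in which Cre under the Tie2 (Tek) promoter adds an epitope, hemagglutinin (HA), to Rpl22, a protein of the large ribosomal subunit. The diets gave 10% of kcal from fat (CFD, animals 489, 555 and 556) or 60% (HFD, animals 516, 517 and 676), and per the study's methods the mice were male. Each mouse gave 1 library of RNA pulled down with anti-HA (IP) and 1 library of the white matter RNA before the pulldown (input). The 12 libraries thus formed 4 groups of 3. The labels give a sample number, and IP and input of 1 number were taken to come from the same mouse. Below, 3 values in a row stand for animals 489, 555 and 556 in CFD and for animals 516, 517 and 676 in HFD.

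Microglia are the resident macrophages of the brain parenchyma. They read neuronal and vascular signals through receptors such as CX3CR1 and P2RY12, depend on the colony-stimulating factor 1 receptor for survival, and take up debris, which they break down in lysosomes. Perivascular macrophages lie along brain vessels and share many of these genes. The Tie2 promoter is active in endothelial cells and is also known to drive Cre in many cells of the blood lineage, so the ratio of IP over input in each mouse was the measurement of interest. In bulk libraries, fewer cells of a type and less RNA per cell cannot be told apart.

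The promoters of the genes were read for 1 short sequence, because Spi1, 1 of the 35 genes, encodes PU.1, a transcription factor of the macrophage lineage that binds GAGGAAGT-like elements. RefSeq windows of GRCm38.p6, from 250 bases before to 50 after a start site, were matched for 26 of the 35 genes; Csf1r, Tmem119, C1qa, Tyrobp, Ctsb, Cd74, Gpr34, Selplg and Spi1 were not matched. GAGGAAGT or its reverse complement ACTTCCTC was present in 5 of the 26 matched genes, which had 29 windows, against 3.20% of the 32851 windows of all genes. These shares differ in unit, since a gene can have several windows, and the share per gene over all genes was not computed. A match is a stretch of letters and not a measured binding site. The 30 bases around each match are given 5′ to 3′ on the strand of the gene, with the matched 8 bases in capitals, since they show where in the promoters of these 5 genes the element lies.
Inpp5d, chr1:87620281-87620310 (+): gtttctataatGAGGAAGTtctgtgcagct
Ctss, chr3:95526773-95526802 (+): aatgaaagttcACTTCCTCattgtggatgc
Cd53, chr3:106790125-106790154 (-): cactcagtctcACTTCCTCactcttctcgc
C1qc, chr4:136893091-136893120 (-): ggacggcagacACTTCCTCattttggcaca
Hpgds, chr6:65144761-65144790 (-): gcttttaggtgGAGGAAGTggcctctggct
In Ctss, Inpp5d and Hpgds the element begins 2, 20 and 49 bases before the start site, and in C1qc 195 bases before it. In Cd53 it begins 6 bases after the start site. No binding of PU.1 was measured here.

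Library totals ranged from 19567186 to 33660708 counts, of which the 35 genes held 0.0444% to 0.109%. Rn45s, the ribosomal RNA precursor, held 38.7% to 42.3% of the counts in CFD IP, 17.1% to 19.1% in HFD IP and 6.34% to 14.2% in input. Tek had 0 counts in 3 of 6 IP libraries and at most 80 in any library. Xist, transcribed from the inactive X of females, reached 133 counts in animal 676's input and at most 7 elsewhere. The Y-linked gene Ddx3y had 944 counts in that same input and 215 to 1492 over all 12 libraries. Results were also computed without animal 676. Between any 2 libraries of a group, counts over genes differed far beyond sampling noise, with chi-square values of at least 119 per degree of freedom.

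The markers Cx3cr1, P2ry12 and Csf1r were detected in all 12 libraries and passed the test in none of the comparisons between IP and input or between diets. Cx3cr1, the fractalkine receptor, had 192, 650 and 544 counts in CFD input and 290, 174 and 32 in CFD IP. On HFD the values were 471, 1000 and 139 counts in input and 824, 77 and 712 in IP. The IP of animals 556 and 517 stood lowest, and the groups overlapped in all comparisons. P2ry12, the ADP receptor that guides microglial processes to injury, had 190, 298 and 562 counts in CFD input and 236, 41 and 130 in CFD IP. On HFD there were 399, 444 and 400 counts in input and 93, 408 and 689 in IP. Its 3 HFD inputs lay close together while its IP libraries varied up to 6.51-fold within a diet, after scaling for depth. Csf1r, the colony-stimulating factor 1 receptor, had 1056, 667 and 2244 counts in CFD input and 987, 777 and 1035 in CFD IP. The HFD libraries held 1531, 1328 and 792 counts in input and 1135, 5808 and 1419 in IP, where animal 517 stood apart from all other libraries. Of the exon bases of Csf1r, 15.1% overlap Hmgxb3 on the opposite strand, and whether the counting used strand is not stated. Over both diets the log2 fold change of IP against input was -0.53 (SE 0.741) for Cx3cr1, -0.50 (SE 0.739) for P2ry12 and 0.58 (SE 0.421) for Csf1r. The edgeR adjusted p-values were 0.824, 0.834 and 0.59.

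**Figure D1:**
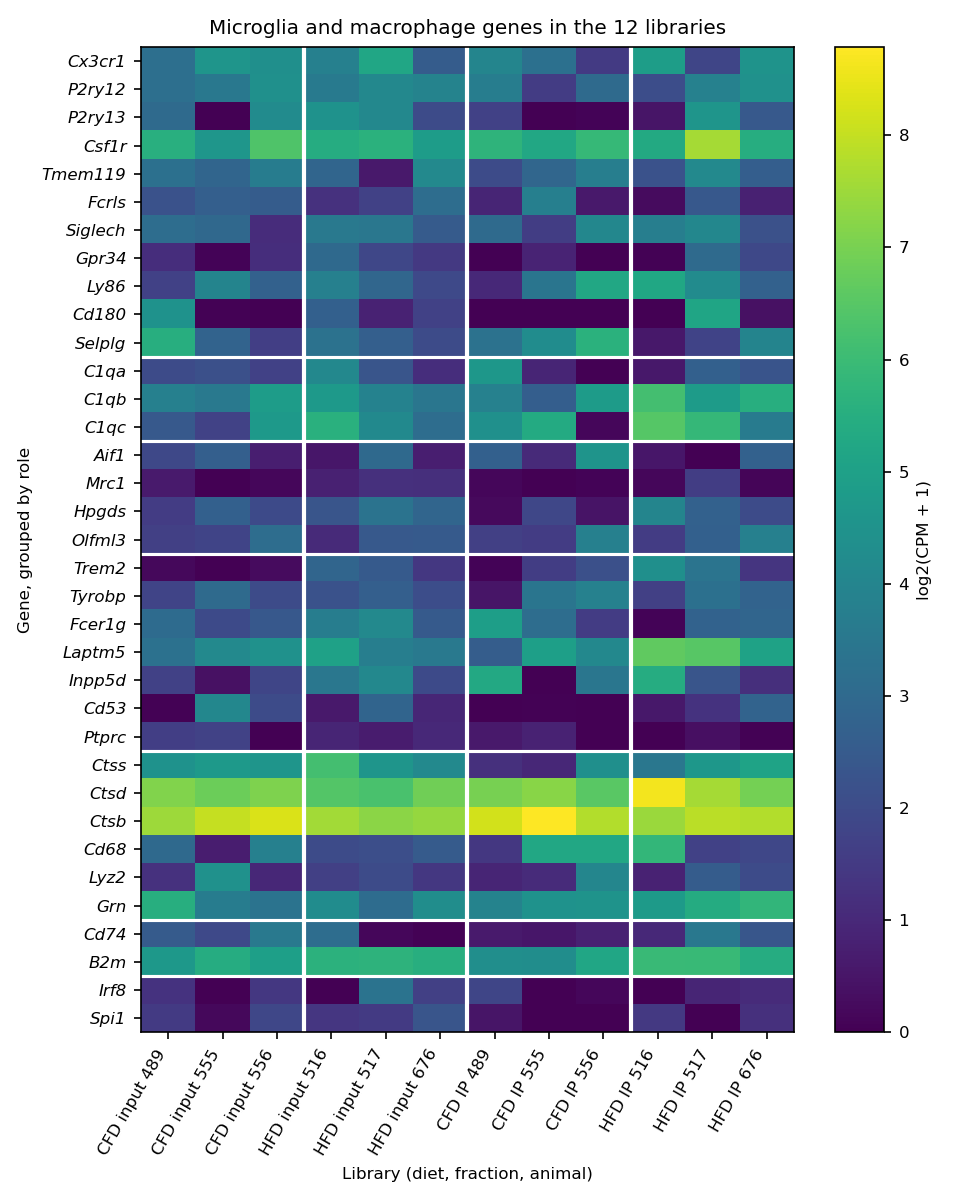
Level of each of the 35 genes (rows, grouped by role) in each of the 12 libraries (columns), as log2(CPM + 1), where CPM are counts scaled to a common library size, with white lines between groups and roles. Ctsd and Ctsb are bright in every library, while Cd180, Cd53 and Trem2 differ widely between libraries of 1 group.

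The genes covered a wide range of levels in whole white matter. Per kilobase of transcript, with CPM scaled for library size and averaged over the 6 inputs, the lysosomal protease cathepsin D (Ctsd) was highest at 56.7 CPM per kb. It was followed by B2m, the light chain of MHC class I, at 46.6, and by the lysosomal proteases cathepsin B (Ctsb) and cathepsin S (Ctss) at 44.5 and 22.1 CPM per kb. The complement chains C1qc and C1qb came next at 16.4 and 15.8 CPM per kb. At the low end stood Mrc1, the mannose receptor of perivascular macrophages, at 0.127 CPM per kb and Ptprc, the leukocyte common antigen CD45, at 0.207 CPM per kb. Ctsd, Ctsb, Grn and B2m are also made by other brain cells, so sums were also taken over the other 31 genes.

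The spread between libraries was larger in IP than in input. The coefficient of variation of CPM was larger over the 6 IP libraries than over the 6 inputs for 29 of the 35 genes, with medians of 112% and 69.4%. The share of all genes for which this held was not computed. Over all genes tested, the highest library held a median of 38.4% of the summed level in IP and 30.2% in input. A single IP library held more than 50% of the summed IP level for 16 of the 35 genes, against 6 of 35 in input. Over all genes tested these shares were 31.5% in IP and 15.7% in input, which correspond to 45.7% and 17.1% of the 35 genes. The library concerned was not always the same. The highest IP value lay in animal 516 for 11 genes, in 517 for 7, in 556 for 6, in 676 for 5 and in 489 and 555 for 3 each. The same tally over all genes was not made. The most extreme case was Cd180, for which the IP of animal 517 held 99.1%, followed by Mrc1 with 85.0% in the same library. P2ry13 followed with 75.7%, also in animal 517, and Cd53 with 75.2% in animal 676.

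The comparison of IP with input asks whether transcripts were higher or lower in the pulldown than in input, not whether they were present in it. Between IP and input, no gene of the 35 passed an adjusted p under 0.1 in edgeR's quasi-likelihood test. Over all genes tested, 0.188% passed in CFD, 0.0139% in HFD and 2.35% over both diets. At an unadjusted p under 0.05 there were 3 of 35 in CFD, where 11.8% of all genes were past that mark. There were 2 of 35 in HFD, where 6.51% were, and 6 of 35 over both diets, where 13.9% were. These were Trem2 (higher in IP), Cd53 and Cd180 (lower) in CFD, Ctsd and Laptm5 (higher) in HFD, and over both diets Ctsd, Cd68, Laptm5 and Trem2 (higher) and Cd53 and Cd180 (lower). With a likelihood ratio test, 2, 0 and 1 of the 35 genes had an adjusted p under 0.1 in CFD, in HFD and over both diets, where 1.93%, 0.0279% and 5.43% of all genes did. With DESeq2 there were 2 in CFD and 2 over both diets, where 6.03% and 7.36% of the genes given an adjusted p did. In HFD the filter of DESeq2 on mean counts left 1274 genes with an adjusted p, among them 2 of the 35, and 1 of these was called, against 12.6% of the 1274. With no filter on low counts edgeR called 1, 0 and 0 of the 35, against 1.7%, 0.432% and 3.99% of all genes. The median log2 fold change of the 35 genes was -0.16 in CFD, 0.27 in HFD and -0.02 over both diets, against -0.01, -0.01 and -0.03 for all genes. All 3 CFD IP libraries lay above all 3 CFD inputs for 0 of the 35 genes and below them for 2, Ctss and Cd74. Among all genes, 6.43% lay wholly above and 8.72% wholly below. In HFD, IP lay above input for 4 genes, C1qb, Ctsd, Laptm5 and Grn, and below for Ptprc alone, where 6.13% and 7.98% of all genes did.

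Within each mouse, IP exceeded input for 11, 14 and 13 of the 35 genes in CFD and for 16, 23 and 22 in HFD. The percentages of all genes tested that did so were 45.2%, 45.5% and 43.4% in CFD and 42.7%, 44.6% and 48.5% in HFD. No gene of the 35 was higher in IP in all 6 mice, and C1qc and Grn were higher in 5 of 6. Ptprc was higher in none, with 1 mouse level. Over all genes, 4.09% were higher in all 6 mice and 6.24% in none.

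**Figure D2:**
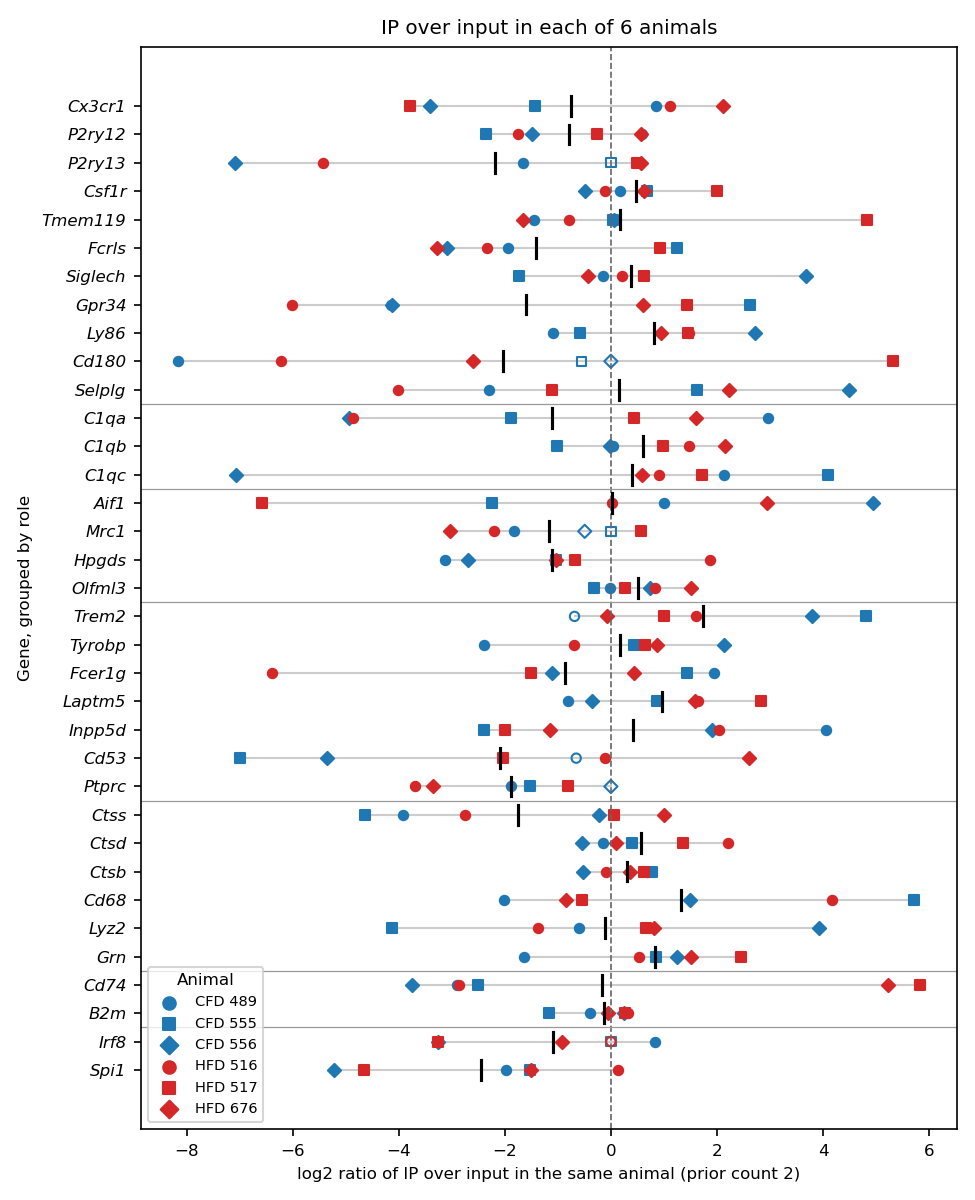
For each of the 35 genes (rows), the log2 ratio of IP over input in each of the 6 mice (points, CFD blue, HFD red; black tick, mean of the 6; open points, both libraries at or under 3 counts), with a prior count of 2. Most genes have points on both sides of 0, and none has all 6 points to the right of it.

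The 35 genes taken as a sum had log2 ratios of 0.13, 0.43 and -0.14 in CFD and of 0.72, 0.93 and 0.50 in HFD, IP over input. The mean was 0.43 ± 0.39 (SD, n = 6 mice), and the 3 HFD ratios lay above the 3 CFD ratios. Some other lists showed the same order of the diets, while the ratios of the oligodendrocyte, astrocyte, endothelial and pericyte lists overlapped between diets. The 8 neuron genes had log2 ratios of -0.60, -0.47 and -0.43 in CFD and 0.0066, -0.043 and 0.20 in HFD, and the lists of complement partners and of ligands and lineage factors were also separated in this direction. Without Ctsd, Ctsb, Grn and B2m the ratios were 0.0056, 0.12 and 0.18 in CFD and 0.47, 0.97 and 0.79 in HFD, with a mean of 0.42 ± 0.39 (SD, n = 6). Sums over marker genes of other brain cells lay on both sides of this value. The mean log2 ratio was 0.41 ± 0.36 for 8 oligodendrocyte genes, 0.56 ± 0.50 for 8 astrocyte genes and -0.22 ± 0.32 for 8 neuron genes (SD, n = 6 mice each). Single genes weighed heavily in these sums, as Slc1a2 held 86.5% of the astrocyte counts and Snap25 69.6% of the neuron counts. Taken gene by gene over both diets, 6 of the 8 neuron genes had a fitted change upwards in IP. Their median log2 fold change was 0.22, although the mean ratio of their sum was below 0. The mean log2 ratio was 0.95 ± 1.37 for 14 endothelial genes, from -1.06 to 2.88 among mice, and -0.52 ± 1.06 for 6 pericyte genes. Slc2a1 and Egfl7 held 72.1% of the endothelial counts, and 3650 counts of Egfl7 lay in the IP of animal 556. Of the 12 endothelial genes tested, 5 had a fitted change upwards in IP over both diets and 7 downwards. Their median log2 fold change was -0.17. The part of other cell types' RNA in the ratios of the 35 genes was not tested.

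**Figure D3:**
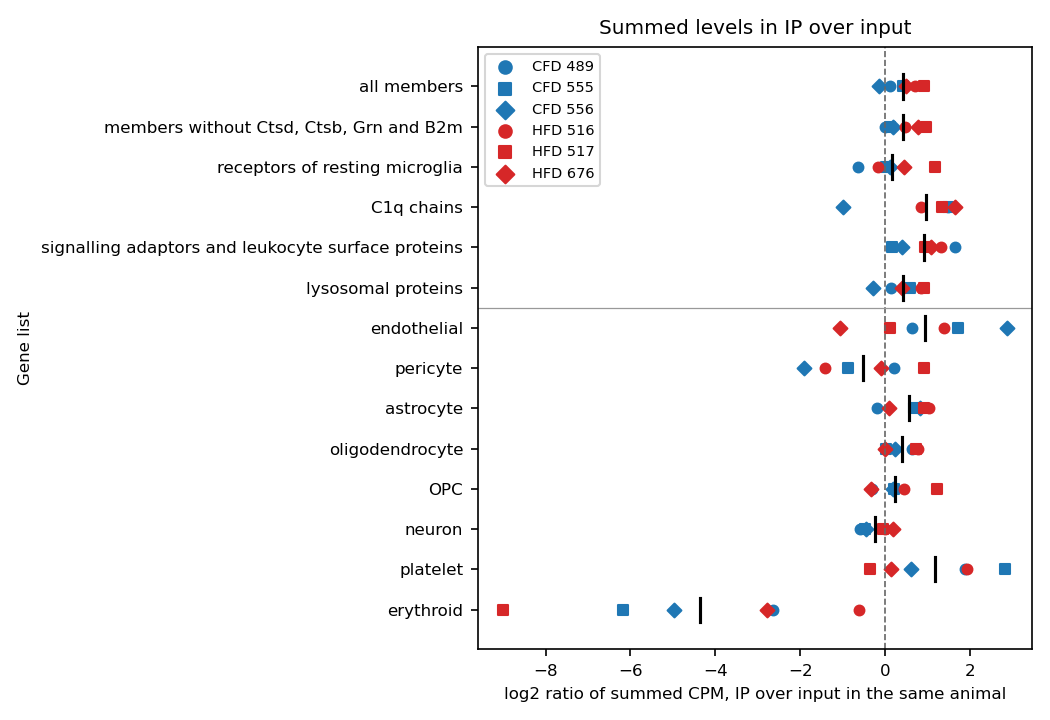
Log2 ratio of summed CPM, IP over input, in each of the 6 mice (points, CFD blue, HFD red; black tick, mean) for the 35 genes, for their roles and, under the grey line, for marker lists of other cell types. The 35 genes sit near 0.43 on average, close to the oligodendrocyte and astrocyte lists, while the erythroid list lies left of 0 in every mouse.

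Blood cells that the Tie2 lineage could include were looked for by their own markers. The summed level of 4 monocyte genes was at most 0.657 CPM in any library, that of 8 neutrophil genes at most 1.11 and that of 8 lymphocyte genes at most 0.213, and none of these genes had enough counts to be tested. Of these lists, 3 of 4, 3 of 8 and 7 of 8 genes were at or under 3 counts in all 12 libraries. The 8 platelet genes summed to 1.55 to 15.3 CPM in IP and 0.815 to 7.08 CPM in input, with a mean log2 ratio of 1.17 ± 1.23 (SD, n = 6 mice) and 5 of 6 mice above 0. Only Gp1bb and Gp1ba of this list had enough counts to be tested, and they held 92.1% of its counts. The platelet chemokine genes Pf4 and Ppbp reached at most 13 and 3 counts, and Treml1 and Gp6 were at 0 in all 12 libraries. The 6 erythroid genes summed to 0.033 to 3.61 CPM in IP and 3.22 to 21.3 CPM in input, and were lower in IP in 6 of 6 mice. The globin genes Hba-a1, Hba-a2 and Hbb-bt were at 0 in all 12 libraries, and Hbb-bs had 25 counts in the input of animal 516 and at most 2 elsewhere. How reads shared between similar globin genes were counted was not examined. Alas2, the heme synthesis enzyme of red cell precursors and the only gene of the list tested, held 82.3% of the counts of the list. Slc4a1 had 420 counts in the input of animal 517 and at most 6 elsewhere. The 9 perivascular macrophage genes, 4 of them tested, summed to 74.0 CPM in the IP of animal 556 and to 28.2 CPM or less in every other library. Single genes carried these sums, with 1317 counts of the scavenger receptor gene Stab1 in the IP of animal 556 and 806 of F13a1 in the IP of animal 516. The log2 ratio of the sum ran from -2.31 to 3.38 among mice.

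Among the 11 receptors and surface proteins of resting microglia, Cd180, a toll-like receptor relative, had 497, 1 and 0 counts in CFD input and 0 counts in all CFD IP libraries. The HFD libraries had 197, 22 and 63 counts in input and 0, 1048 and 10 in IP. Its highest values thus lay in the input of animal 489, whose IP had 0 counts, and in the IP of animal 517. Against the 3 counts per library that a count of 0 allows, CFD input was at least 45.6-fold higher than CFD IP, but no bound above 1 was left without animal 489. The fitted log2 fold change, which depends on the prior count, was -10.57 (SE 3.56; adjusted p from edgeR 0.272). Ly86 encodes MD-1, the partner that CD180 needs at the cell surface. It had 53, 415 and 154 counts in CFD input, 20, 201 and 664 in CFD IP, 474, 181 and 81 in HFD input and 1065, 548 and 183 in HFD IP. Ly86 was therefore present in all 12 libraries, including the CFD IP libraries in which Cd180 was at 0.

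Selplg, which encodes P-selectin glycoprotein ligand 1, had 1026, 168 and 57 counts in CFD input, 173, 379 and 859 in CFD IP, 324, 146 and 86 in HFD input and 14, 73 and 479 in HFD IP. The order of the mice was opposite in input and IP of both diets. P2ry13, a purinergic receptor whose gene neighbours P2ry12 on chromosome 3, had 170, 0 and 487 counts in CFD input and 44, 0 and 1 in CFD IP. In HFD it had 760, 444 and 85 counts in input and 12, 689 and 149 in IP. It had 0 counts in both libraries of animal 555, in which P2ry12 had 298 and 41 counts. Both genes lie inside Med12l, which is read from the opposite strand, and whether the counting used strand is not stated. Tmem119 had 14 to 470 counts in input and 59 to 501 in IP, Siglech 32 to 385 and 42 to 473, Fcrls 49 to 218 and 6 to 266, and Gpr34 2 to 250 and 0 to 220. Across mice the log2 ratio of IP over input of these 4 genes ran from -6.003 to 4.84. Their summed level with the other 7 gave a mean log2 ratio of 0.17 ± 0.62 (SD, n = 6 mice), above 0 in 4 of 6 mice.

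The C1q genes C1qa, C1qb and C1qc lie next to each other on chromosome 4, from 136880126 to 136898844 of GRCm38, and encode the 3 chains of the complement protein that opens the classical pathway. C1qa had 71, 97 and 61 counts in CFD input and 469, 18 and 0 in CFD IP, with 587, 110 and 34 in HFD input and 14, 164 and 125 in HFD IP. C1qb had 305, 303 and 766 counts in CFD input and 260, 108 and 493 in CFD IP, with 912, 381 and 282 in HFD input and 2045, 826 and 1467 in HFD IP. C1qc had 105, 65 and 689 counts in CFD input and 389, 830 and 2 in CFD IP, with 1686, 472 and 218 in HFD input and 2549, 1717 and 383 in HFD IP. In the IP of animal 556, C1qb thus stood at 493 counts while both other chains were at or under 2. The share of C1qc among C1q counts ran from 14.0% to 52.9% in input and from 0.404% to 86.8% in IP. The share of C1qb ran from 28.6% to 65.2% in input and from 11.3% to 99.6% in IP. Summed, the chains had log2 ratios of IP over input of 1.49, 1.49 and -0.995 in CFD and 0.85, 1.36 and 1.67 in HFD, a mean of 0.98 ± 1.005 (SD, n = 6 mice). None of the 3 chains had an unadjusted p under 0.05 in any comparison.

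**Figure D4:**
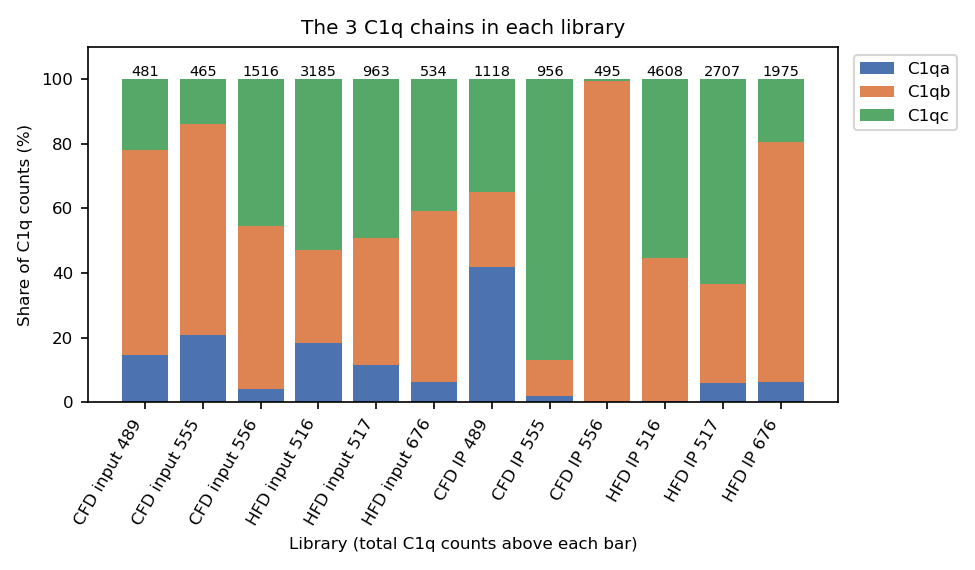
Share of the C1q counts (%) held by C1qa, C1qb and C1qc in each library, with the total of C1q counts above each bar. C1qb takes 28.6% to 65.2% of the counts in the 6 inputs but 11.3% to 99.6% in the 6 IP libraries.

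Among signalling adaptors and leukocyte surface proteins, Trem2, the lipid-sensing receptor of microglia, had 3, 0 and 5 counts in CFD input and 1, 42 and 62 in CFD IP. On HFD it reached 229, 128 and 47 counts in input and 564, 284 and 52 in IP. The CFD inputs were the lowest group, and the IP of animals 555 and 556 stood above their inputs. The log2 fold change of IP against input in CFD was 4.10 (SE 1.92), and the edgeR test gave an unadjusted p of 0.0439, adjusted to 0.407. Tyrobp, which encodes DAP12, the adaptor through which TREM2 signals, had 58, 203 and 83 counts in CFD input and 8, 202 and 240 in CFD IP. In HFD it had 129, 149 and 91 counts in input and 63, 256 and 195 in IP. Tyrobp was thus above 3 counts in all 12 libraries, where Trem2 was at or under 3 in the input and IP of animal 489 and in the input of animal 555.

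Fcer1g, the common gamma chain of Fc receptors, had 175, 82 and 118 counts in CFD input and 563, 164 and 35 in CFD IP, with 435, 453 and 130 in HFD input and 2, 174 and 205 in HFD IP. Inpp5d, which encodes the inositol phosphatase SHIP1, had 52, 9 and 71 counts in CFD input and 736, 0 and 176 in CFD IP, with 370, 444 and 82 in HFD input and 1227, 120 and 42 in HFD IP. The IP of animals 489 and 516 held the high values of Inpp5d, and the IP of animal 555 had none. The log2 fold change of IP against input was 3.22 (SE 1.65) for Inpp5d in CFD and -1.46 (SE 1.38) for Fcer1g in HFD, with edgeR adjusted p-values of 0.442 and 0.951. Laptm5, a lysosomal membrane protein of blood-lineage cells, had 204, 468 and 568 counts in CFD input and 96, 622 and 289 in CFD IP. In HFD it had 1131, 345 and 301 counts in input and 2836, 2706 and 1052 in IP. In CPM its HFD IP libraries lay above the HFD inputs and above the CFD IP libraries. The log2 fold change of IP against input in HFD was 2.01 (SE 0.756), and the edgeR test gave an unadjusted p of 0.0144, adjusted to 0.633.

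Cd53, a leukocyte tetraspanin, had 1, 442 and 82 counts in CFD input and 0, 1 and 0 in CFD IP. In HFD it had 19, 170 and 26 counts in input and 14, 44 and 198 in IP. Its CFD IP libraries were near 0 while the HFD IP libraries overlapped the HFD inputs. Over the 3 libraries of each group, 525 counts in CFD input stood against 1 in CFD IP, a ratio of 384 after scaling, with a 95% exact interval from 68.7 to 15203 that covers counting error only. Of the 525 counts 442 were in animal 555, and without that input the ratio was 94.7 (interval from 16.5 to 3785). The fitted log2 fold change, which depends on the prior count, was -8.18 (SE 2.69; adjusted p from edgeR 0.268). Ptprc had 49, 67 and 0 counts in CFD input and 10, 16 and 0 in CFD IP, with 32, 16 and 28 in HFD input and 0, 9 and 1 in HFD IP. Its fitted log2 fold change in HFD was -2.86 (SE 2.57; adjusted p from edgeR 0.945). All 7 genes of this group together had a log2 ratio above 0 in 6 of 6 mice, with a mean of 0.93 ± 0.56 (SD), while Ptprc and Cd53 on their own had mean ratios of -1.87 and -2.09. Laptm5, Inpp5d and Fcer1g had the highest counts of the group.

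Of the 6 lysosomal proteins, Ctsd had the smallest p between IP and input in HFD. It had 3233, 3197 and 3710 counts in CFD input and 2413, 3080 and 1659 in CFD IP, with 3058, 2104 and 3278 in HFD input and 11313, 5900 and 4066 in HFD IP. Every HFD IP library exceeded every HFD input. The log2 fold change of IP against input in HFD was 1.36 (SE 0.395), and the edgeR test gave an unadjusted p of 0.00235, adjusted to 0.532. Without animal 516 it was 0.71. DESeq2, adjusting over the 1274 genes its filter left, gave an adjusted p of 0.038 with all mice, the lowest over the alternatives, which ran up to 1. By the annotation, 34.4% of the exon bases of Ctsd are shared with the read-through gene Gm49369, so reads there cannot be assigned to Ctsd alone.

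Ctsb was the steadiest of the 35 genes in IP, with a coefficient of variation of 35.7%. It had 4219, 7335 and 8636 counts in CFD input and 5597, 9124 and 3908 in CFD IP, with 6757, 4230 and 4772 in HFD input and 5106, 7155 and 7186 in HFD IP. Of its exon bases, 12.8% overlap Fdft1 on the opposite strand. Cd68, a lysosomal glycoprotein of phagocytes, had 162, 18 and 366 counts in CFD input and 32, 771 and 669 in CFD IP, with 110, 91 and 135 in HFD input and 1615, 68 and 86 in HFD IP. Its 3 highest values were in the IP of animals 555, 556 and 516. Over both diets its log2 fold change was 2.16 (SE 0.932), and the edgeR test gave an unadjusted p of 0.0302, adjusted to 0.297, and it was 0.56 without animal 516. Ctss had 26 and 20 counts in the CFD IP of animals 489 and 555, against 502 and 728 in their inputs, and 297 to 1096 counts in HFD IP. Grn, which encodes progranulin, had 209 to 1026 counts in input and 274 to 1765 in IP. Lyz2, the macrophage lysozyme, had 26 to 586 counts in input and 17 to 275 in IP, and reads shared with its near-identical neighbour Lyz1 cannot be told apart. Summed, the lysosomal genes gave a mean log2 ratio of 0.44 ± 0.46 (SD, n = 6 mice), above 0 in 5 of 6.

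For antigen presentation, Cd74, the invariant chain of MHC class II, had 110, 80 and 294 counts in CFD input and 11, 9 and 13 in CFD IP. In HFD the direction varied, with 280, 3 and 1 counts in input and 29, 313 and 133 in IP. B2m had 583, 1202 and 817 counts in CFD input and 370, 389 and 631 in CFD IP, with 1746, 1387 and 1242 in HFD input and 1740, 1821 and 1393 in HFD IP. In CPM, the HFD libraries of B2m lay above the CFD libraries in both fractions. The transcription factors were scarce. Irf8 had 0 to 252 counts in input and 0 to 50 in IP, with 3 IP libraries at or under 3 counts, and Spi1 had 4 to 111 in input and 0 to 51 in IP, with 3 IP libraries at 0. Of the other genes, Aif1, which encodes the microglial stain Iba1, had 16 to 196 counts in input and 0 to 398 in IP. Mrc1 had at most 37 counts in input, and 61 in the IP of animal 517 against 3 or fewer in the other 5 IP libraries. Hpgds had 45 to 252 counts in input and 3 to 429 in IP, and Olfml3 38 to 213 and 41 to 432.

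Diet was then compared in input, which asks whether the microglial transcripts of whole white matter differed. None of the 35 genes had an adjusted p under 0.1 in edgeR, as was so for 0% of all genes. DESeq2 and the likelihood ratio test also gave 0 of 35, with 0.225% of the genes given an adjusted p and 0% of all genes called. So did edgeR with no filter on low counts, which called 0.0164% of all genes. At an unadjusted p under 0.05 there was 1 gene, Trem2, against 2.03% of all genes. Its log2 fold change was 5.29 (SE 2.02), and the edgeR test gave an unadjusted p of 0.0158, adjusted to 1, and it ranged from 4.72 to 5.97 when each animal was left out. All 3 HFD inputs lay above all 3 CFD inputs for 5 of the 35 genes, Trem2, Mrc1, Gpr34, Inpp5d and B2m, and below them for 0. Among all genes 6.05% lay wholly above and 4.33% wholly below. The median log2 fold change of the 35 genes was 0.0054. Their summed level was 697 ± 97.2 CPM in CFD input and 614 ± 102 CPM in HFD input (SD, n = 3 each). Selplg and Ctsb, which had the smallest p-values among the genes with a fitted change downwards, had log2 fold changes of -1.58 (SE 1.24) and -0.56 (SE 0.324).

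Between HFD IP and CFD IP, 0 of the 35 genes had an adjusted p under 0.1 in edgeR, where 0.0557% of all genes did. The likelihood ratio test gave 1, Cd180, where it called 1.58% of all genes. DESeq2 gave 3, Laptm5, Cd180 and Cd53, where it called 5.79% of the genes with an adjusted p. With no filter on low counts edgeR gave 1, Cd180, and called 1.2% of all genes. At an unadjusted p under 0.05 there were 5 of 35, Cd180, Laptm5, Cd53, Ctsd and B2m, all with a fitted change upwards in HFD, against 10.9% of all genes. The median log2 fold change of the 35 genes was 0.90, with 23 above 0, against 0.03 for all genes. When each animal was left out it ran from 0.68 without animal 516 to 1.20 without animal 556. All 3 HFD IP libraries lay above all 3 CFD IP libraries for 6 genes, Cd74, Laptm5, Cd53, Hpgds, B2m and Grn, and below them for 0, where 5.94% and 4.66% of all genes did.

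Laptm5 had a log2 fold change between the IP groups of 2.10 (SE 0.758), and the edgeR test gave an unadjusted p of 0.0111, adjusted to 0.363. Ctsd followed with 0.96 (SE 0.392) and B2m with 1.15 (SE 0.545), with edgeR adjusted p-values of 0.394 and 0.451. Among the genes with a fitted change downwards, Ctsb and Selplg had the smallest p-values, with log2 fold changes of -0.59 (SE 0.324) and -2.11 (SE 1.26) and edgeR adjusted p-values of 0.501 and 0.531. For Cd180, HFD IP was at least 74.6-fold higher than CFD IP against the floor of 3 counts per library, but no bound above 1 was left without animal 517. For Cd53, 256 counts in HFD IP stood against 1 in CFD IP, a ratio of 161 after scaling with an exact 95% interval for counting error alone from 28.7 to 6389. Animal 676 held 198 of the 256 counts, and without it the ratio was 56.8 (interval from 9.79 to 2281). The edgeR adjusted p-values of Cd180 and Cd53 were 0.326 and 0.363. Cx3cr1, P2ry12 and Csf1r had log2 fold changes of 1.07 (SE 1.06), 0.81 (SE 1.05) and 0.90 (SE 0.598). For Csf1r the value was -0.24 without animal 517. The summed level of the 35 genes was 766 ± 92.2 CPM in CFD IP and 1020 ± 242 CPM in HFD IP (SD, n = 3 each), and the groups overlapped. The share of Rn45s in the libraries, which was lower in HFD IP than in CFD IP, moved with this comparison. Refitted without Rn45s and Lars2, the 35 genes had a median log2 fold change of 0.88, with 23 above 0. Any other way in which the libraries differed along with this share was not tested.

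**Figure D5:**
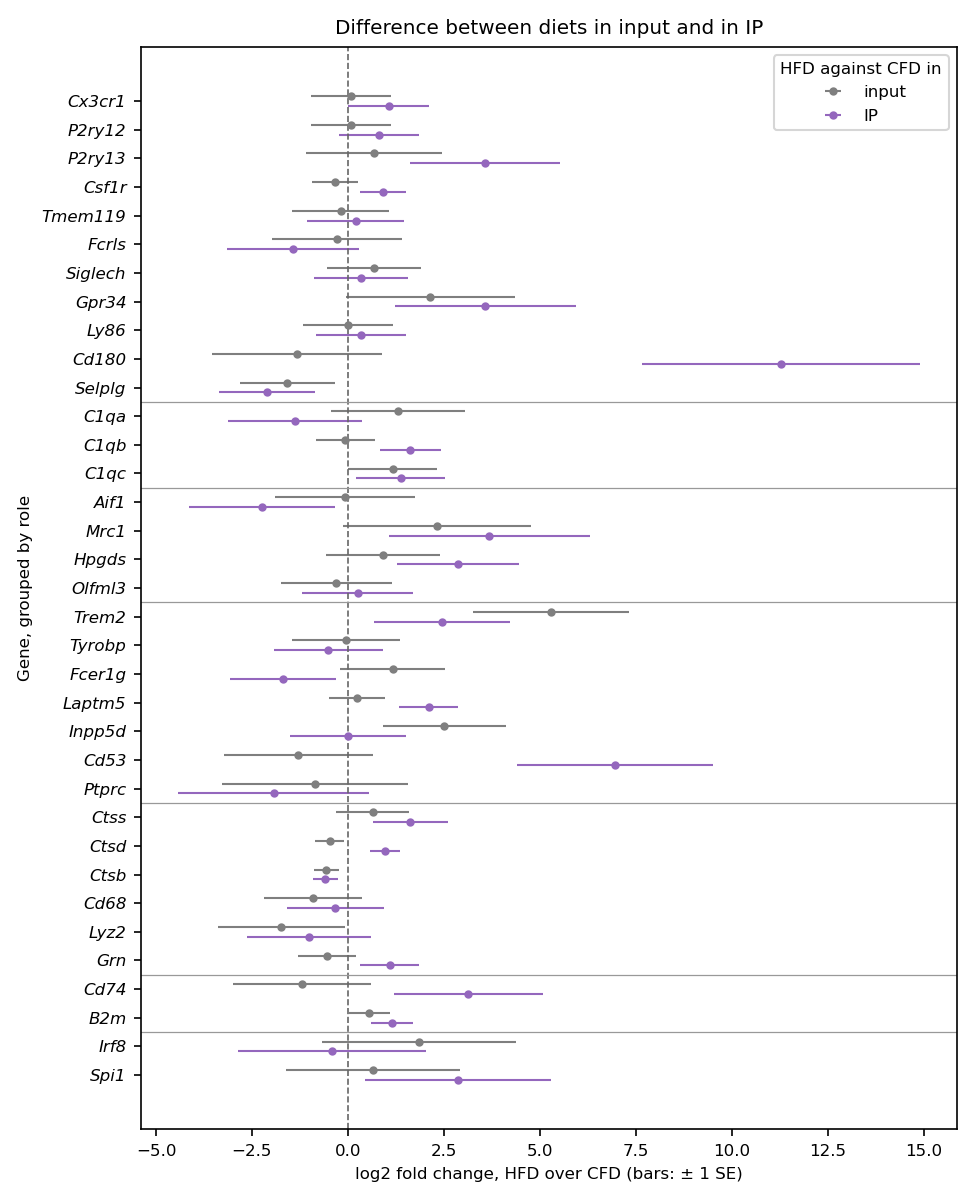
Log2 fold change of HFD over CFD for each of the 35 genes (rows, grouped by role) in input (grey) and in IP (purple), with bars of 1 SE from the edgeR fit. In IP, 23 of the 35 points lie above 0, and in input 18 do; most bars cross 0 or come close to it.

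The interaction term compares the effect of diet in IP with its effect in input. None of the 35 genes had an adjusted p under 0.1 in edgeR, as was so for 0% of all genes, while DESeq2 gave 1, Cd180, where it called 0.877% of the genes with an adjusted p. The likelihood ratio test gave 0, with 0.258% of all genes called, and edgeR with no filter on low counts gave 1, Cd180, with 0.24%. At an unadjusted p under 0.05 there were 3, Cd180, Ctsd and Cd53, against 5.36% of all genes. For Ctsd the interaction was 1.43 (SE 0.552), and the edgeR test gave an unadjusted p of 0.0163, adjusted to 0.872. Fcer1g and Trem2, with the smallest p-values among the genes below 0, had interaction terms of -2.86 (SE 1.95) and -2.84 (SE 2.42), with edgeR adjusted p-values of 0.896 and 0.926. The median over the 35 genes was 0.60, against 0.06 for all genes.

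Genes that act beside the 35 were counted in the same fits. Of 16 genes raised in activated microglia, 11 were tested and 0 were called in any of the 6 comparisons. Of 12 complement partners 8 were tested, of 6 MHC class II genes 5 were tested, and all 12 ligands and lineage factors were tested, again with 0 called in any comparison. Of the 14 genes of TREM2 and Fc receptor signalling, all tested, 2 had an adjusted p under 0.1 and were lower in IP over both diets, the phosphatase gene Ptpn6 and Apbb1ip, named after their values were seen. Ptpn6 had 96, 0 and 0 counts in CFD input, 23, 289 and 146 in HFD input and at most 1 in IP. It was at or under 3 counts in 8 libraries. Apbb1ip had 95, 429 and 82 counts in CFD input and 0, 0 and 1 in CFD IP. In HFD it had 506, 333 and 146 counts in input and 102, 0 and 247 in IP. Of all genes, 0.418% were called lower in IP over both diets and 1.93% higher. Of 13 lysosome partners 12 were tested, and 1, Psap, which encodes the saposin precursor and was also named after its value was seen, was higher in IP over both diets. The summed log2 ratio of IP over input was 0.25 ± 0.29 for the activated microglia list, -0.42 ± 1.26 for the signalling list and 0.52 ± 0.39 for the lysosome partners (SD, n = 6 mice each).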

How the data were processed

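The labels gave each library's group and a sample number, which was taken as the number of the animal. The members and lists were chosen with earlier results of these data known. Per the labels the authors' processing used STAR, HTSeq and the mm10 build, and versions are not given in the sources used here. The authors deposited whole-number counts per gene and library, which were used here, and FPKM, which served only to obtain transcript lengths. The deposited normalized signal was not used. The log2 fold changes and p-values in the deposited table are the authors' own comparisons and were not used. Different library kits are named in the labels and in the methods, and the use of strand in counting is not stated.

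The count analysis used edgeR 4.0.16 under R 4.3.3: filterByExpr on 4 groups (minimum count 10, minimum total 15), TMM scaling, glmQLFit with 4 group means and no block, and glmQLFTest, with Benjamini-Hochberg adjustment over 14354 genes and a threshold of 0.1. CPM were computed from the scaled library sizes. The SE is the absolute fold change over the square root of F. Ratios within a mouse used a prior count of 2. A count of 0 was read as allowing up to 3 counts. IP and input of 1 number were taken to come from the same mouse. Their deviations correlated across genes at 0.0064 to 0.19. The median correlation was -0.018 for IP and input of different animals of the same diet. In simulated counts with 14354 genes for HFD IP against CFD IP, 25% of 100 genes changed 4-fold and 53% of 100 changed 16-fold were recovered. Alternatives were RLE scaling, no filter, a likelihood ratio test, DESeq2 1.42.0, a replicate block and omission of Rn45s and Lars2. Further ones were a threshold of 0.05, only the libraries compared, and omission of each animal. In the replicate block, edgeR took animal as a fixed term wherever IP was contrasted with input, the interaction term included. Where only the diets were contrasted, limma 3.58.1 took animal as a random block. Values were given in every library for the 3 markers and for the 2 members with the smallest p in each direction of each comparison, other members by range or by role.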

Additional observations from a re-analysis of the deposited data

How the results depend on the processing

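The number of the 35 genes called was 0 in each of the 6 comparisons under RLE scaling, without Rn45s and Lars2, at an adjusted p under 0.05, with the replicate block and without each animal in turn (lowest 0, highest 0). It was also 0 in the fits of only the libraries compared, which were made for the 4 comparisons of 2 groups; 30 of the 35 genes passed the filter there for IP against input in CFD, 31 for HFD IP against CFD IP and 35 for the other 2. The paired analysis with the replicate block thus changed no count, at 0 in every comparison. With no filter it was 1 for IP against input in CFD, 1 for HFD IP against CFD IP and 1 for the interaction, each time Cd180, with 1.7%, 1.2% and 0.24% of all genes called. The likelihood ratio test gave 2 for IP against input in CFD, 1 over both diets and 1 for HFD IP against CFD IP, where it called 1.93%, 5.43% and 1.58% of all genes. DESeq2 gave 2 in CFD, 1 in HFD, 2 over both diets, 3 between the IP groups and 1 for the interaction, where it called 6.03%, 12.6%, 7.36%, 5.79% and 0.877% of the genes with an adjusted p. The cause was not tested. These calls were of Cd180, Cd53, Ctsd and Laptm5. For Cd180, 1 library held most of the counts.

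The mean log2 ratio of IP over input of the summed genes stayed between 0.42 and 0.44 under RLE scaling, without the 4 broadly expressed genes and without Rn45s and Lars2, and between 0.33 and 0.54 when each animal was left out.

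Of the log2 fold changes named, 15 alternative values had the other sign, all of values that were not called. With the replicate block these were Csf1r at 0.12 for IP against input in CFD, Cx3cr1 at 0.22 for IP against input in HFD and Cx3cr1 at -0.29 between inputs. Leaving out 1 animal gave ranges across 0. For IP against input these were -0.21 to 0.36 for Csf1r in CFD, -0.80 to 1.48 for Cx3cr1 and -0.70 to 0.17 for P2ry12 in HFD, and -1.07 to 0.23 for Cx3cr1 over both diets. Between inputs they were -0.91 to 0.54 for Cx3cr1, -0.18 to 0.56 for P2ry12, -0.67 to 0.20 for Csf1r and -2.12 to 0.52 for Selplg. Between the IP groups Csf1r ran from -0.24 to 1.24. Depth limits genes such as Mrc1, Ptprc, Irf8 and Spi1, whose libraries often held few counts.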
